A study of Homo sapiens with 4 samples.

Results

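RNA recovered with the methyltransferase NSUN2 was compared gene by gene with the RNA of the same lysate in vehicle-treated PANC-1 cells. The comparison set 1 immunoprecipitate (IP) library against 1 input library. Genes entered it with at least 1 FPKM (fragments scaled by gene length and by library size) in either library, which kept 9099 of the 24483 genes in the table. Of these, 9067 were nuclear and 32 were encoded by mitochondria, and 7350 of the nuclear genes were protein-coding. A gene's enrichment is log2((IP + 1)/(input + 1)), with 1 FPKM added to both values. It is given relative to the median nuclear gene, whose own log2 ratio was 0.44. Relative values of 1 and −1 are called 2-fold higher and 2-fold lower below.

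PANC-1 is an established, wild-type human line of pancreatic ductal adenocarcinoma, here in medium with 10% fetal bovine serum. Vehicle cells received water for 24 h, and the other cells of the series received 30 mM sodium lactate for the same time. Lysates in polysome lysis buffer met an anti-NSUN2 antibody on protein A/G beads for 4 h, and input RNA was set aside before that step. The series has 4 libraries (input and IP of each treatment) made with the SMART-Seq v4 kit, 1 per group, so no value has a replicate error and no test across genes was run. A precipitate with a control antibody was not analysed here. NSUN2 binding and RNA carried along on the beads therefore cannot be told apart in any value given here.

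NSUN2 is a nuclear and nucleolar enzyme that transfers a methyl group to carbon 5 of cytosine, giving 5-methylcytosine (m5C). Its best known substrates are transfer RNAs, and it also modifies vault RNA and a set of messages, where m5C can be read by the export adaptor ALYREF and the stabilising protein YBX1. In RNA immunoprecipitation the protein is pulled down with its RNA, and an enriched gene is one whose share of the precipitate exceeds its share of the starting RNA.

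Whole reads were recovered from the FPKM values, and library totals were 17626197 in the vehicle input and 13620414 in the vehicle IP. Nuclear genes held 31.3% and 30.3% of these reads. Of 8 markers chosen for a ductal adenocarcinoma line, 5 (EPCAM, KRT18, KRT19, KRT8 and VIM) reached 1 FPKM in the vehicle input. KRT7, CDH1 and MUC1 did not, and the summed level over the list was 388 FPKM. Of the markers of acinar, islet, fibroblast, endothelial, immune and neural cells, COL1A1 (1.89 FPKM) and SYT1, a synaptic vesicle protein (12.3 FPKM), alone reached it.

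The distribution leaned to the low side. Of the nuclear genes 1116 (12.3%) were at least 2-fold higher in the IP and 2158 (23.8%) at least 2-fold lower. At 4-fold the numbers were 84 and 648, and at 8-fold 5 and 142. The middle of the distribution ran from −0.95 to 0.62 between quartiles. This split follows from where 0 is set. On FPKM as deposited 2506 genes were higher and 1373 lower, and with equal nuclear totals, where the median gene moved to 0.72, 3551 were higher and 1070 lower. The FPKM minimum also shaped it, since 2566 genes passed through the IP alone and 995 through the input alone. Of the 1116 higher genes 495 had under 1 FPKM in the input, and of the 2158 lower genes 772 had under 1 FPKM in the IP. Among genes past the minimum in both libraries 621 were higher and 1386 lower.

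**Figure D1:**
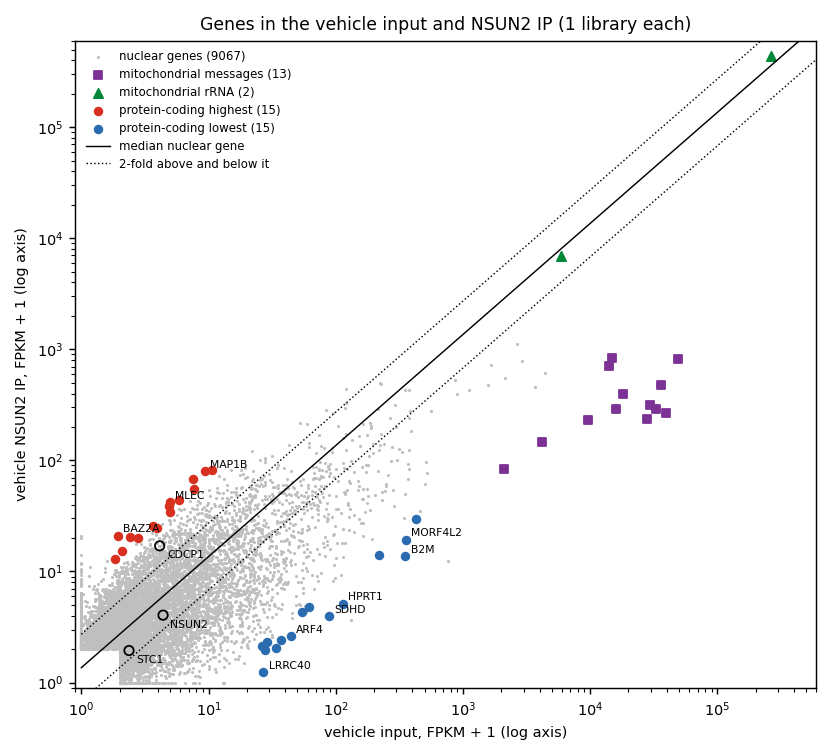
Each point is a gene, with FPKM + 1 in the vehicle input on the horizontal log axis and in the vehicle NSUN2 IP on the vertical log axis, 1 library each. The solid line is the median nuclear gene and the dotted lines lie 2-fold above and below it. The 13 mitochondrial messages lie far under the lines, both mitochondrial ribosomal RNAs lie between the dotted lines, and the 15 highest and 15 lowest protein-coding genes with at least 10 FPKM are coloured.

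Among the 1719 protein-coding genes with at least 10 FPKM in the vehicle input or IP, the highest was BAZ2A. This gene encodes the large subunit of the NoRC complex that silences ribosomal DNA repeats. It had 0.934 FPKM in the input and 20.0 FPKM in the IP, from 180 and 2972 reads. Its relative enrichment was 2.99 (7.97-fold), or 3.79 without the added FPKM (95% interval 3.57 to 4.01, counting error only). The lactate libraries had 0.949 FPKM in the input and 8.49 FPKM in the IP, a relative enrichment of 2.28. Both IP libraries thus stood well above both inputs for this gene.

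BAZ1B, a subunit of the WICH chromatin remodeller, had 3.89 FPKM in the input and 38.1 FPKM in the IP, a relative enrichment of 2.56. Its reads numbered 484 and 3668. PRRC2C, a very large protein of stress granules and translation initiation, went from 6.53 to 67.6 FPKM (relative 2.74) on 1634 and 13072 reads. MAP1B, a microtubule-associated protein of neurons and growing cell processes, had 8.38 and 78.6 FPKM (relative 2.64). MLEC, the endoplasmic reticulum lectin malectin, had 3.96 and 40.8 FPKM (relative 2.63). ANKRD11, a chromatin regulator, had 1.42 and 19.3 FPKM (relative 2.62). These genes kept a relative enrichment between 2.35 (MAP1B) and 2.76 (MLEC) in the lactate pair, with which the vehicle pair shares no library.

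The rest of the 15 highest genes lay between 2.22 and 2.50. All 15 had under 10 FPKM in the input, from 0.824 (PACSIN3) to 9.65 (ABCF1). Each thus entered the pool of genes with at least 10 FPKM through the IP alone, which favours a high rank. ABCF1, an ATP-binding protein that assists translation initiation, had 9.65 FPKM in the input and 80.8 FPKM in the IP (2.50). RTF1, a transcription elongation factor, had 4.88 and 43.0 FPKM (2.46). MKI67, the perichromosomal protein Ki-67 of dividing cells, had 6.64 and 54.5 FPKM (2.42). PACSIN3, a membrane-bending protein of endocytosis, had 0.824 and 12.0 FPKM (2.39). RSAD1 (2.43), ILRUN (2.41), NAT14 (2.36) and FAM114A1 (2.22) were also in the group. All 15 genes were also at least 2-fold higher in the lactate pair, from 1.64 (ABCF1) to 2.76 (MLEC).

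At the other end of the same pool stood B2M, the invariant chain that completes each class I antigen-presenting molecule. It had 351 FPKM in the input and 12.7 FPKM in the IP, from 19320 and 540 reads, which put it 35.0-fold under the median gene (relative −5.13). HPRT1, the purine salvage enzyme, had 113 and 4.10 FPKM (−4.93). SDHD, a membrane anchor subunit of respiratory complex II, had 86.9 and 2.95 FPKM (−4.92). These were abundant messages in the input and scarce ones in the IP.

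LRRC40 had 25.9 FPKM in the input and 0.232 FPKM in the IP (−4.89), but its IP value rests on 9 reads. MORF4L2, a subunit of histone acetyltransferase complexes, had 354 and 18.3 FPKM (−4.65). ARF4, a GTPase of Golgi transport, had 43.3 and 1.61 FPKM (−4.53). NPM1, the abundant nucleolar chaperone nucleophosmin, had 427 and 28.6 FPKM (−4.30), and TPT1, the translationally controlled tumour protein, had 218 and 13.1 FPKM (−4.40). EIF4A2, an RNA helicase of translation initiation, had 60.6 and 3.82 FPKM (−4.12), and RHEB, the GTPase that activates mTORC1, had 28.0 and 1.31 FPKM (−4.10). CRYZ (−4.49), ENOPH1 (−4.40), RIDA (−4.26), CIAO2A (−4.09) and SPTSSA (−4.07) were the others of the 15 lowest. Only B2M, MORF4L2, TPT1 and NPM1 of the 15 had at least 10 FPKM in the IP. The rest entered the pool through the input alone, which favours a low rank. In the lactate pair all 15 were again at least 4-fold lower, from −4.60 (HPRT1) to −2.30 (RIDA). B2M, NPM1, TPT1 and other abundant messages have processed copies elsewhere in the genome, and the treatment of reads that match several genes is not stated in the labels or headers.

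The study is known to follow the messages of CDCP1, a membrane protein that promotes migration, and STC1, a hormone-like secreted protein. CDCP1 was among the 2-fold higher genes, with 3.13 FPKM in the input and 16.0 FPKM in the IP, and its relative enrichment was close in vehicle (1.60) and lactate cells (1.47). STC1 had 1.37 and 0.941 FPKM on 100 and 53 reads (−0.73), and in lactate cells it lay at 0.25. NSUN2 itself had 3.39 and 3.04 FPKM (−0.56), and only with equal nuclear totals did its value pass 0 (0.16). Of 12 measured enzymes and readers of RNA methylation, 1 was higher and 2 lower (median −0.11). Over all protein-coding genes the shares were 11.3% and 23.6%, so the list as a whole did not stand apart. ZC3H13, a subunit of the m6A writer complex, had 9.04 and 29.6 FPKM (1.17), and ALKBH5, an m6A demethylase, stood at 0.92. The m5C reader YBX1 had 83.4 and 35.5 FPKM (−1.65), and WTAP of the m6A writer stood at −1.59.

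Transcripts of the mitochondrial genome separated by class. The 13 messages lay between −7.64 and −4.59 (median −6.24). MT-ND2, a subunit of complex I, had 39128 FPKM in the input and 266 FPKM in the IP, and MT-CO2, a subunit of complex IV and the least reduced message, had 14935 and 842 FPKM. The large ribosomal RNA MT-RNR2 had 262964 and 436227 FPKM (0.29) and the small ribosomal RNA MT-RNR1 had 5933 and 6969 FPKM (−0.21). Mitochondrial tRNAs ranged from −3.27 to 1.22 over 17 genes (median −0.80). Most of them had few reads, and MT-TP, the largest by reads, had 1382 and 187 (−2.95).

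**Figure D2:**
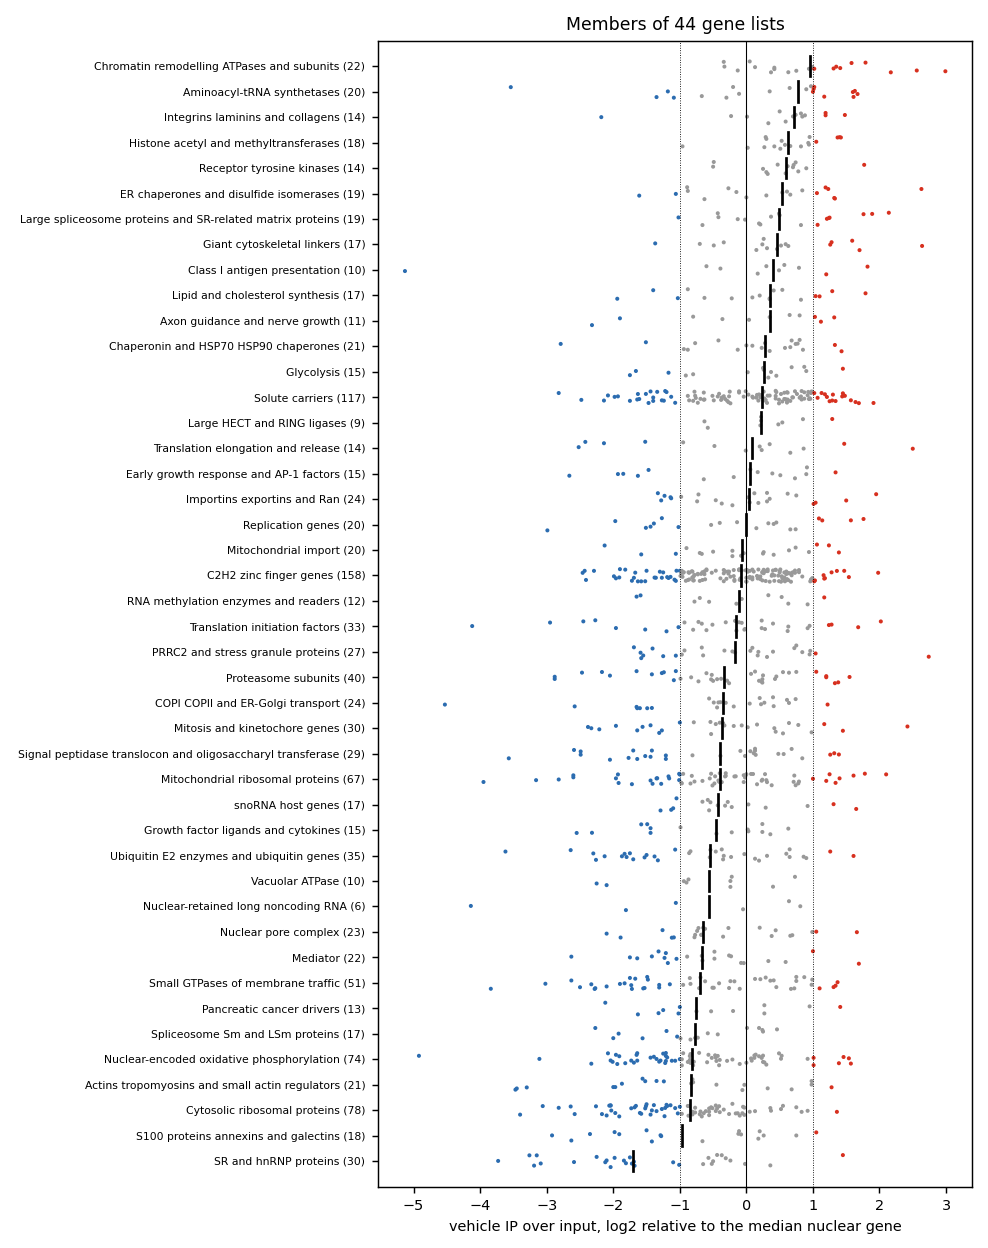
Each point is a gene of the list named at the left (number of measured members in brackets), at its vehicle enrichment on the log2 scale relative to the median nuclear gene, and black bars are list medians. Red points are at least 2-fold higher and blue points at least 2-fold lower. Chromatin remodelling genes, with 9 of 22 red and 0 blue, stand at the top, and SR and hnRNP proteins, with 1 of 30 red and 19 blue, at the bottom.

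Gene lists by function are read against all protein-coding genes, of which 11.3% were higher and 23.6% lower with a median of −0.03. The lists were drawn up with earlier results of these data known. Their ranks and the differences between them are therefore descriptions only. Chromatin remodellers, which slide or evict nucleosomes, had the highest median of the 44 lists at 0.96, with 9 of 22 measured members at least 2-fold higher and 0 lower. On a like-level scale, where each gene is centred on genes of like lactate input level, their median was 0.70, under those of ER chaperones and cytosolic chaperones (both 0.85), integrins, laminins and collagens (0.83) and large spliceosome proteins (0.73). BAZ2A and BAZ1B led them. The 2 lowest members were SMARCA5, the ISWI motor that partners both BAZ proteins, with 4.55 FPKM in the input and 4.97 FPKM in the IP (−0.34), and PBRM1 of the PBAF complex, with 6.52 and 7.14 FPKM (−0.33). The list's median was 0.88 in the lactate pair and 0.40 or more under every alternative tried on the lists. Of its 22 members 10 passed the FPKM minimum through the IP alone.

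Histone acetyl- and methyltransferases, which mark nucleosomes, had a median of 0.62 with 4 of 18 higher and 0 lower. ASH1L, an H3K36 methyltransferase, had 1.07 and 6.54 FPKM (1.42) and SETD5 had 1.01 and 6.23 FPKM (1.40). EP300, an acetyltransferase with wide roles at enhancers, had 2.54 and 3.89 FPKM (0.02) and KAT2B 1.82 and 0.972 FPKM (−0.96). Again 10 members passed the minimum through the IP alone. Mediator, which links enhancer-bound factors to RNA polymerase II, had a median of −0.67, with 2 of 22 higher and 9 lower. Of its members 5 passed the minimum through the input alone and 3 through the IP alone. MED1, the subunit that binds nuclear receptors, had 2.55 and 14.6 FPKM (1.69), while MED10 had 16.6 and 2.88 FPKM (−2.63) and MED4 8.72 and 2.92 FPKM (−1.75).

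Splicing genes differed between lists, a division made with earlier results of these data known. Large spliceosome proteins and SR-related proteins of nuclear speckles had a median of 0.49, with 7 of 19 higher and 1 lower. RBM25, a regulator of splice site choice, had 11.1 and 71.2 FPKM (2.14), and SRRM2, a scaffold of nuclear speckles, had 0.757 and 7.83 FPKM (1.89). SF3B1, the branch-point protein of the U2 particle, was the 1 lower member, with 5.55 and 3.40 FPKM (−1.02). The classical SR and hnRNP proteins, which bind exons and nascent transcripts, had the lowest median of any list at −1.70. Of 30 members 19 were lower and 1 higher. HNRNPA2B1 had 190 FPKM in the input and 18.6 FPKM in the IP (−3.73), HNRNPH2 had 63.9 and 8.22 FPKM (−3.26), and SRSF11, the exception, had 26.8 and 102 FPKM (1.45). All 30 passed the FPKM minimum in both libraries, the median was −1.38 in the lactate pair, and it was −0.79 when each gene was centred on genes of like input level. The Sm and LSm proteins, the small ring-forming core of spliceosomal particles, had a median of −0.77 with 0 of 17 higher and 6 lower. SNRPG had 128 and 35.3 FPKM (−2.27) and SNRPE 12.4 and 24.1 FPKM (0.46).

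Translation factors lay on both sides of the median gene. Aminoacyl-tRNA synthetases, which load amino acids on tRNAs, had a median of 0.78 (0.62 on the like-level scale), with 8 of 20 higher and 4 lower. QARS1, the glutaminyl enzyme, had 3.28 and 17.6 FPKM (1.67), and EPRS1, the glutamyl-prolyl enzyme, had 11.0 and 49.6 FPKM (1.63). AIMP1, a scaffold of the synthetase complex, had 8.05 and 3.84 FPKM (−1.35). The lactate pair gave a lower median of 0.28 for this list. Initiation factors had a median of −0.15, with 4 of 33 higher and 8 lower. These counts were near the shares over all protein-coding genes (11.3% and 23.6%), so the list as a whole did not stand apart. Within eIF3, the large complex that bridges message and 40S subunit, EIF3A had 20.9 and 119 FPKM (2.02) and EIF3E had 22.1 and 3.08 FPKM (−2.95). The scaffold EIF4G1 had 1.71 and 10.8 FPKM (1.68), opposite to its helicase partner EIF4A2. Among elongation and release factors EEF2 had 26.6 and 103 FPKM (1.47) and EEF1A1 had 367 and 92.5 FPKM (−2.42).

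Cytosolic ribosomal proteins had a median of −0.84, with 1 of 78 higher and 35 lower, but 0.18 when centred on genes of like input level. RPSA, which also serves as a laminin receptor, had 2.86 and 12.5 FPKM (1.36), and RPL26 had 162 and 20.0 FPKM (−3.40). Nuclear-encoded oxidative phosphorylation genes behaved alike in both respects, with a median of −0.82, 6 of 74 higher and 29 lower, and 0.20 on the like-level scale. NDUFB7 of complex I had 17.8 and 75.1 FPKM (1.57), and NDUFA5 of the same complex had 9.75 and 0.700 FPKM (−3.11). Mitochondrial ribosomal proteins, at a median of −0.40, ranged from MRPL12 with 5.06 and 34.4 FPKM (4.30-fold above the median gene) to MRPL3 with 98.0 and 7.73 FPKM (relative −3.95). Their like-level median was 0.08.

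Integrins, laminins and collagens had a median of 0.72, with 12 of 14 members above the median gene, 3 higher and 1 lower. ITGA3, a laminin-binding integrin chain, had 3.25 and 15.1 FPKM (1.48), LAMC1 had 2.14 and 8.74 FPKM (1.19), and ITGAV had 8.31 and 1.79 FPKM (−2.18). Receptor tyrosine kinases had a median of 0.60, with 12 of 14 above the median gene but 1 at least 2-fold higher, FGFR1, with 1.10 and 8.77 FPKM (1.77). Of these kinases 6 passed the FPKM minimum through the IP alone, which favours a place above the median gene, and the 6 with at least 1 FPKM in the lactate input had a median of 0.71. ER chaperones and disulfide isomerases, which fold such proteins, had a median of 0.54, with 6 of 19 higher and 2 lower. MLEC and CALR (calreticulin, 3.83 and 15.5 FPKM, 1.33) led them, and DNAJB11 (−1.61) was lowest. CANX (calnexin) had 61.2 and 39.5 FPKM (−1.06), which became 0.33 on the like-level scale. In class I antigen presentation the heavy chain HLA-E had 7.51 and 40.0 FPKM (1.82), against −5.13 for its partner B2M.

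Growth factors and cytokines had 0 of 15 higher and 6 lower (median −0.45), but 4 members passed the FPKM minimum through the input alone and could only lie low. The chemokine CXCL8 had 3.31 FPKM in the input (151 reads) and 0 reads in the IP, which allows up to 3 reads or 2.20e-05% of that library, and CCL20 had 80 and 1 reads. S100 proteins, annexins and galectins, calcium- and sugar-binding proteins abundant in this line, had a median of −0.97 with 1 of 18 higher and 9 lower, and −0.04 on the like-level scale. ANXA5 had 88.5 and 15.1 FPKM (−2.92) and S100A11 had 376 and 82.1 FPKM (−2.63). Actins and their small regulators had a median of −0.83, and 0.05 on the like-level scale. ACTB had 3662 and 454 FPKM (−3.45), TMSB4X, thymosin beta 4, had 498 and 60.1 FPKM (−3.47), and the capping protein CAPG had 5.72 and 21.2 FPKM (1.28). Genes mutated in pancreatic cancer had 1 of 13 higher and 6 lower, between the splicing regulator RBM10 (2.04 and 9.96 FPKM, 1.41) and GNAS (45.8 and 13.7 FPKM, −2.12). MYC was lower in vehicle cells (1.39 and 0.0480 FPKM, −1.63) on 112 and 3 reads. In lactate cells it stood at 0.37, from 0.215 FPKM in the input and 0.574 FPKM in the IP, both under the 1 FPKM minimum.

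For 10 of the 44 lists the median stayed above 0 and for 5 below 0 under every scaling, pseudocount and minimum tried and in the lactate pair, while 29 crossed 0 somewhere. Those above were the aminoacyl-tRNA synthetases, cytosolic chaperones, chromatin remodellers, class I presentation, ER chaperones, glycolysis, histone acetyl- and methyltransferases, integrins with laminins and collagens, large spliceosome proteins and receptor tyrosine kinases. Those below were Mediator, the cancer genes, S100 proteins with annexins and galectins, SR and hnRNP proteins, and Sm and LSm proteins. Of these, SR and hnRNP proteins came no nearer to 0 than −0.79, while the others reached −0.02 (cancer genes), −0.03 (Mediator, Sm and LSm proteins) and −0.04 (S100 proteins) under 1 of the settings or in the lactate pair. Among lists above 0, some members passed the FPKM minimum through the IP alone, which favours that side. The largest shares were 10 of 18 histone acetyl- and methyltransferases, 10 of 22 chromatin remodellers and 6 of 14 receptor tyrosine kinases. Over all nuclear genes it was 2566 of 9067. Large spliceosome proteins had 5 of 19, and each remaining list above 0 had at most 3 such members. The selection on the lactate input avoids this but left 2 of the histone enzymes and 4 class I genes. A list's median describes these libraries and was not tested.

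Level and enrichment were related. The classes were cut on the lactate input, a library that the vehicle ratio does not use, and over genes with at least 1 FPKM there, so that no gene entered through the vehicle IP. Among 4571 such protein-coding genes 9.65% were higher and 35.3% lower (median −0.55). In the lowest of 5 classes, at a median of 1.23 FPKM in the lactate input, the median enrichment was −0.17 and 16.2% of genes were lower. In the highest class, at 15.4 FPKM, it was −1.32 and 58.1% were lower, with the other classes in order between them (−0.29, −0.52 and −0.73). Gene length had no such order, at −0.46, −0.58, −0.70, −0.57 and −0.47 from the shortest to the longest class. Across all 7350 protein-coding genes Spearman's correlation of enrichment was −0.48 with the lactate input level and 0.08 with length, as descriptions over genes of the same libraries. What sets this relation was not tested.

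**Figure D3:**
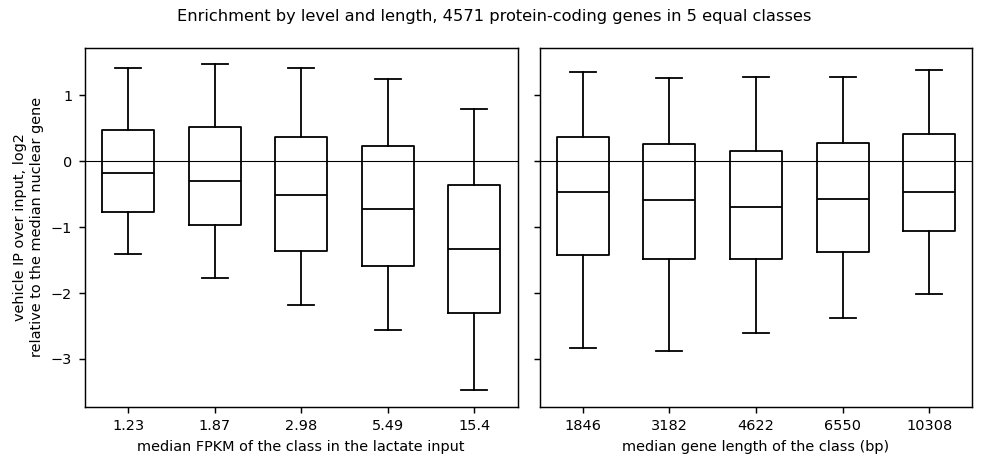
Boxes show the vehicle enrichment (log2, relative to the median nuclear gene) of 4571 protein-coding genes in 5 equal classes of lactate input FPKM (left) and of gene length (right), labelled by the class median. Boxes span the quartiles, lines mark medians and whiskers the 5th and 95th percentiles. Medians fall from −0.17 to −1.32 from the lowest to the highest level and show no order with length.

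Over list members with at least 1 FPKM in the lactate input, the median was 0.97 for chromatin remodellers (10 genes), 0.94 for aminoacyl-tRNA synthetases (16), 0.66 for integrins, laminins and collagens (10), 0.45 for ER chaperones (14) and 0.43 for large spliceosome proteins (12), against −0.55 for all. It was −1.70 for SR and hnRNP proteins (30), −1.29 for actins (18) and −1.28 for S100 proteins, annexins and galectins (16). Giant cytoskeletal linkers, at 0.46 over 17 members, came to −0.01 over 8.

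Of 631 measured lncRNA genes 88 (13.9%) were higher and 106 (16.8%) lower, with a median of 0.28. Over the 224 with at least 1 FPKM in the lactate input the median was −0.47. MALAT1, the abundant RNA of nuclear speckles, had 456 FPKM in the input and 34.2 FPKM in the IP on 70929 and 4112 reads (−4.14), and −3.97 in lactate cells. NEAT1, the scaffold of paraspeckles, had 15.4 and 5.36 FPKM (−1.81), whereas TUG1 had 5.81 and 15.3 FPKM (0.81). Of the 97 lncRNA genes with at least 5 FPKM in the vehicle input or IP, ENSG00000277959 was the highest. It had 0 reads in the input and 90 in the IP (relative 3.94), and so entered through the IP alone. As a share of library reads, not centred on the median gene, it was at least 38.8-fold higher in the IP against a floor of 3 reads in the input library. It stood at 0.37 in lactate cells. ENSG00000274422 had 1.10 and 15.2 FPKM on 64 and 680 reads (2.50) and 2.98 in lactate cells. Small RNA classes had medians of 4.00 to 7.50 reads per gene over both libraries, and their spread is not read further.

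The lactate pair shares no library with the vehicle pair and is the one independent look at these ratios, in cells under another treatment. Across the 7350 protein-coding genes the relative values of both pairs correlated at Pearson 0.93, a description over genes with no p. In the lactate pair 803 of these genes (10.9%) were higher and 1302 (17.7%) lower. Of the 830 higher in vehicle cells 560 (67.5%) were higher in lactate cells too, which is 69.7% of the lactate genes. Of the 1733 lower ones 1197 (69.1%) were lower in both, 91.9% of the lactate genes. Protein-coding genes called in opposite directions numbered 0. Among all nuclear genes 19 were, each of them a small RNA, pseudogene, lncRNA or unclassified gene with at most 23 reads in any library, such as RNU7-77P with 7 and 0 reads in the vehicle input and IP.

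**Figure D4:**
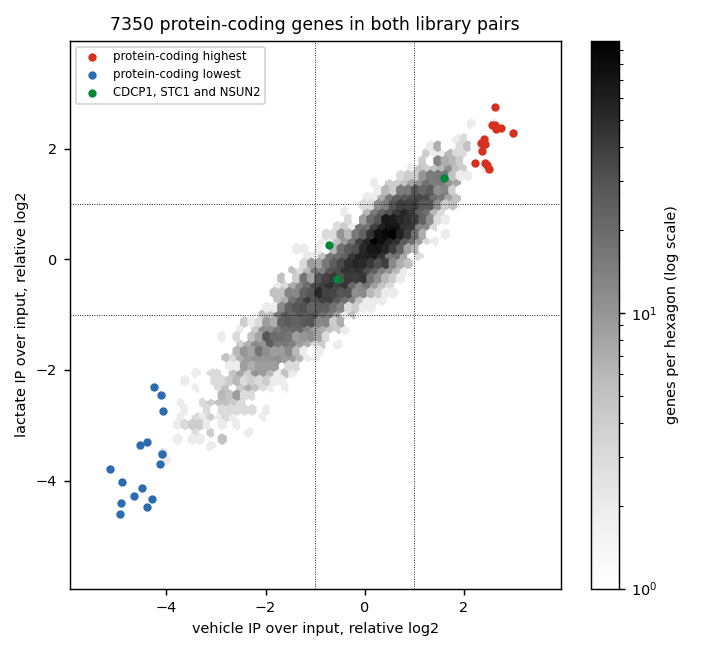
The relative enrichment of 7350 protein-coding genes in vehicle cells (horizontal) and lactate cells (vertical), both log2, with darker hexagons holding more genes and dotted lines at 2-fold. The 15 highest genes, the 15 lowest genes and the study's genes are coloured. Genes lie along the diagonal (Pearson 0.93) and the upper left and lower right corners are empty.

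The authors' vehicle peak list places the IP signal within genes. It holds 95785 peaks of the vehicle IP over its input, in GRCh38 coordinates, with each peak's position, fold and q as the authors gave them and used here only as descriptions. Introns held 56.1% of peaks, exons outside UTRs 21.8%, 3′ UTRs 12.9%, 5′ UTRs 1.63% and intergenic sequence 7.54%. A q under 0.05 was listed for 48.6% of peaks, ranging from 70.6% in 3′ UTRs and 60.4% in exons to 41.3% in introns and 30.3% between genes. Many peaks were small, with 41.3% at the shortest length of 200 bp. Their folds clustered on a few steps, and 59.7% of intron peaks but 18.5% of 3′ UTR peaks had one of the 5 commonest fold values. Measured genes held 57.0% of the peaks.

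Peak position differed with a gene's enrichment, although peaks and FPKM come from the same libraries and are not independent. Of 522 protein-coding genes at least 4-fold lower, 65.5% held a peak, and 78.8% of their 2034 peaks were intronic with 3.39% in 3′ UTRs. All 36 genes at least 4-fold higher held a peak, and their 459 peaks were 39.4% intronic, 39.4% exonic and 19.2% in 3′ UTRs. A peak outside introns was present in 39.3% of the former genes and 100% of the latter. The intron share fell through the classes between them in order, and the 3′ UTR share did not (7.06%, 13.3%, 18.9% and 17.4%). The median of a gene's highest peak fold was 4.85 in the lowest class and 17.6 in the highest.

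**Figure D5:**
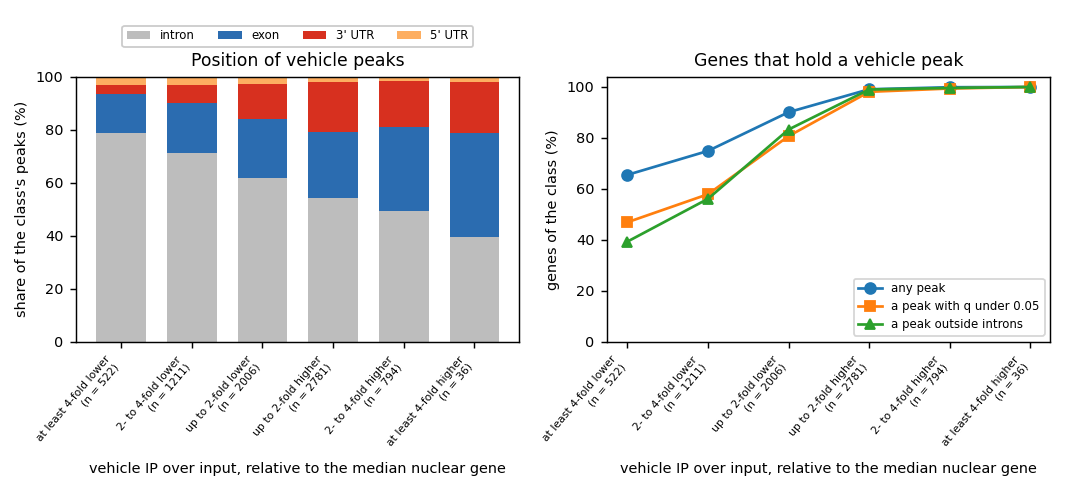
Vehicle peaks of protein-coding genes in 6 classes of vehicle enrichment (number of genes under each class). Left, bars give the share of the class's peaks in introns, exons, 3′ UTRs and 5′ UTRs, and right, points give the percent of genes holding any peak, a peak with q under 0.05 and a peak outside introns. The intron share falls from 78.8% to 39.4% and genes with any peak rise from 65.5% to 100% from the lowest to the highest class.

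The strongest peak of each leading gene was usually exonic. All 15 of the highest protein-coding genes held a peak outside introns, but so did 99.6% of protein-coding genes 2- to 4-fold higher. This therefore does not set the 15 apart. Peaks and FPKM come from the same libraries, and the position of the strongest peak was not counted over all genes. Among the 15, the peak of highest fold was exonic in 11, in the 3′ UTR in 3 and intronic in 1. In BAZ2A it lay in an exon on the minus strand at chr12:56609553-56610645 with a fold of 36.1. MAP1B carried an exonic peak of 2300 bp at chr5:72194087-72196386 with a fold of 41.7, and 17 of its 20 peaks were intronic. BAZ1B had 10 exonic peaks of 18, the strongest at chr7:73476831-73478571 with a fold of 31.5. PRRC2C had 19 exonic peaks of 23, the strongest at chr1:171545317-171545854 with a fold of 29.7. In MLEC the strongest lay in an exon at chr12:120694034-120694454 with a fold of 29.3, and none of its 6 peaks was intronic. ANKRD11 was the gene whose strongest peak was intronic by the authors' annotation, at chr16:89396558-89397840 with a fold of 34.6.

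CDCP1 held 19 peaks, 11 in introns, 4 in exons and 4 in the 3′ UTR, and 16 of them had q under 0.05. Its strongest was exonic, at chr3:45088902-45089329 on the minus strand with a fold of 18.2. STC1 held 1 peak, in the 5′ UTR, with a fold of 7.46. NSUN2 held 4 peaks, the strongest in the 3′ UTR at chr5:6607213-6607496 with a fold of 3.64. Of the 15 lowest protein-coding genes 6 held no peak, among them B2M, TPT1 and EIF4A2, and 1, HPRT1, held a peak outside introns. That peak was 200 bp long with a fold of 3.03 and a q of 0.14. MALAT1 held 1 peak with a fold of 1.19. The mitochondrial genome held 1 peak, in MT-RNR2 at MT:1946-2447, with a fold of 3.35.

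By the authors' values the highest peak of the list, with a fold of 88.6, lay in the 5′ UTR of ZC3H11A, a zinc-finger protein of message export, at chr1:203796887-203797827, although that gene had 0.0310 and 0 FPKM. The highest exonic peaks lay in SLC5A3, a myo-inositol transporter (fold 78.5), ANKRD17 (73.2) and SMARCC1, a core subunit of SWI/SNF remodellers (61.3). SMARCC1 had 3.33 and 25.5 FPKM (2.17) and ANKRD17 1.88 and 13.7 FPKM (1.90), while SLC5A3 stood at 0.09 with 8.97 and 13.5 FPKM. In 3′ UTRs MAN1B1, a mannosidase of ER quality control (48.5), and TRMT61A, the catalytic subunit of a tRNA m1A methyltransferase (47.0), led. The highest intronic peak lay in DST, a giant cytoskeletal linker (51.5), which held 94 peaks and stood at 1.28.

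Of the vehicle peaks 27.8% overlapped a lactate peak by at least 1 bp, and 56.4% of the 48104 lactate peaks overlapped a vehicle peak. Nuclear reads numbered 2112583 in the lactate IP against 4125858 in the vehicle IP. In the inputs they numbered 2339175 (lactate) and 5511705 (vehicle). How this depth bears on the number and overlap of peaks was not tested. The shared part of the vehicle list was 43.8% in 3′ UTRs, 34.5% in exons, 26.6% in 5′ UTRs, 23.6% in introns and 12.6% between genes. It was 45.0% among peaks with q under 0.05 and 11.5% among the others.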

How the data were processed

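RNA of PANC-1 cells was sequenced in 4 libraries, 1 per group. The authors deposited gene values in FPKM. Per the file headers they also deposited 1 peak list per treatment with a fold (a ratio), a p-value, a q-value and the −log10 of each. The submitters' processing notes, the source for tools here, name HISAT2 2.1.0 and fastp 0.20.1, HOMER 4.11.1 and MACS2 2.2.7.1, DiffBind and bedtools 2.29.2, with GRCh38 as build. Not given in the sources used here are the gene counter, the annotation release, the use of strand and the handling of reads that match several genes. The authors' comparison of both IP libraries was not used here.

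Whole reads were recovered from steps in the low FPKM values (72387 values above 0, 100.0% whole within 1e-06 reads). A factor common to a gene's 4 values is lost in this step. Intervals and floors (3 reads) cover counting error only, since the kit adds no molecular identifiers. Enrichment used a pseudocount of 1 and genes with at least 1 FPKM in either vehicle library. With 1 library per group no test was run. Recovery and enrichment were tested on simulated data.

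The text names the 15 highest and 15 lowest protein-coding genes with at least 10 FPKM, the 5 highest and lowest lncRNA genes with at least 5 FPKM (in part), the 2 highest and lowest members of each list, CDCP1, STC1, NSUN2, and the 3 peaks of highest fold per position. Some of these are not reported here. The members, the 44 gene lists and these rules were chosen with earlier results of these data known. The like-level centring (10 bins of the lactate input), the selection on the lactate input and the annotation terms were chosen after seeing the data. Other settings were the pseudocount, the FPKM minimum, the scaling, a peak q or fold threshold and the overlap. Python 3.11.15, pandas 2.3.3, numpy 2.4.6, scipy 1.17.1, bedtools 2.31.1 and matplotlib 3.10.9 were used.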

Additional observations from a re-analysis of the deposited data

How the results depend on the processing

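No paired analysis was possible because each group has 1 library, and for the same reason no library could be left out. The 1116 genes at least 2-fold higher became 2363 with a pseudocount of 0.1, 321 with 5, 2182 with any FPKM above 0, 2506 not centred and 3551 with equal nuclear totals. The 2158 lower genes became 753 with a pseudocount of 5, 1101 with a minimum of 5 FPKM, 1373 both when not centred and on the like-level scale, and 1070 with equal nuclear totals. The lncRNA median of 0.28 was 0.58 and 0.06 with pseudocounts of 0.1 and 5, 0.57 with a minimum of 5 FPKM and −0.47 over genes selected on the lactate input. Over classes of all 7350 protein-coding genes, the gap between the highest and lowest level class (−1.59) was −2.55, −0.79 and −2.64 under the first 3 of these settings, and −1.15 over genes selected on the lactate input. Over the same genes the gap between the longest and shortest class (0.23) was 0.43, 0.05 and 0.76, and −0.01 over genes selected on the lactate input, a set chosen without the vehicle libraries. The causes were not tested beyond what each setting changes by construction.

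List medians passed 0 in 17 of 44 lists with equal nuclear totals, which raise the median gene to 0.72, in 13 on the like-level scale, in 8 with a minimum of 5 FPKM, in 2 with a pseudocount of 0.1, in 1 with 5 and in 1 centred on genes of like length. Among lists at least 0.5 from 0, equal nuclear totals did this to the vacuolar ATPase (0.21), ubiquitin E2 enzymes (0.19), the nuclear pore (0.04), the small GTPases of membrane traffic (0.08) and nuclear lncRNA (0.22). The like-level scale did so, among these, to actins (0.05), the vacuolar ATPase (0.34), cytosolic ribosomal proteins (0.18), oxidative phosphorylation (0.20) and nuclear lncRNA (0.25). Named genes passed 0 in 19 of 1207 values, and those called 2-fold that did so were CANX (0.33), XPOT (0.07) and RAN (0.12), on the like-level scale.

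Peak shares in introns, exons, 3′ UTRs, 5′ UTRs and between genes were 47.7%, 27.1%, 18.8%, 1.73% and 4.70% at q under 0.05, and 44.8%, 28.7%, 20.6%, 1.74% and 4.14% at q under 0.01. At a fold of at least 4 those other than the 5′ UTR share were 50.5%, 26.7%, 16.5% and 4.59%, and by bases the 5 shares were 53.2%, 23.9%, 15.2%, 1.48% and 6.29%. The 27.8% of vehicle peaks shared with lactate was 20.4% where 0.5 of the peak had to be covered and 30.8% at q under 0.05 in both lists. Of the lower protein-coding genes 72.1% held a peak, 54.6% one with q under 0.05 and 51.0% one outside introns. Depth limits genes near 1 FPKM and most small RNAs, where a few reads set the ratio.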

Other observations

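Annotation terms carried by the gene table had medians from −0.81 to 0.44, a narrower range than the lists (−1.70 to 0.96). Over 272 terms with at least 60 measured protein-coding genes, SRP-dependent cotranslational protein targeting to membrane had the lowest median (−0.81, 2 of 83 higher and 36 lower), a term made up mainly of ribosomal proteins, and it stood at 0.20 on the like-level scale. The condensed chromosome kinetochore followed at −0.75 with 4 of 67 higher and 31 lower, and kept −0.19 on that scale. Chromatin organization had the highest median at 0.44 (15 of 71 higher and 13 lower), and histone binding and endocytosis stood at 0.39. The like-level medians of these 3 terms were 0.42, 0.37 and 0.17. The terms overlap and were chosen after seeing the data.

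Intron peaks were spread over long genes. Spans were taken for 14218 protein-coding genes matched by symbol to RefSeq. The fifth of them with the longest span, from 97.2 kb, held 65.2% of the intron peaks of these genes. The density per megabase differed less, from 30.4 in the shortest class to 52.3 in the fourth and 43.0 in the longest. SYT1 held the most, 102 over 588 kb, with 12.3 FPKM in the input and 14.6 FPKM in the IP (relative −0.22). SLC35F3 held 101 at −0.11, KCNQ5, a potassium channel, 93 at −0.23, and THSD4, a matrix protein, 92 at 1.00. Genes with many intron peaks were thus not all enriched as genes.

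Promoter base composition, a feature no step of the enrichment uses, was read from RefSeq sequences of GRCh38.p14 (250 bases before to 50 after the start), matched for 83.1% of protein-coding genes. The median G and C content was 65.7% over 6109 genes, 68.3% over 692 genes at least 2-fold higher, 71.7% over 29 at least 4-fold higher and 64.0% over 1417 at least 2-fold lower. The quartiles of all genes were 59.3% and 72.0%, so the classes overlap widely.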
